A study of Rattus norvegicus with 6 samples.

Results

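Genes of the NRF2 antioxidant and electrophile response were followed in a culture model of bone mineralization with and without a serine protease inhibitor. The 10 genes were Nqo1, Cbr3 and Txnrd1 (reductases that use NADPH), Gclc and Gclm (glutathione synthesis), Gsta1 (glutathione conjugation), Slc7a11 (cystine import), Osgin1, Hmox1 and Nfe2l2 itself. They were taken by name from the array's annotation, which gave them 12 probe sets with exactly 1 gene symbol. The array held 31042 probe sets besides its controls, of which 20826 had exactly 1 symbol and named 14217 genes. Gclc and Txnrd1 had an additional probe set each, and every member had at least 1 bright enough to be tested.

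The cells were UMR106-01, a rat osteosarcoma line with osteoblast properties, so a single transformed line stands in for osteoblasts. All cultures grew in 10% fetal bovine serum and were re-fed 64 h after plating with 6.5 mM beta-glycerol phosphate, which supplies phosphate for mineral. The 3 mineralizing cultures received nothing more, and the 3 others also received 400 µM AEBSF, a sulfonyl fluoride that reacts irreversibly with the active-site serine of proteases. RNA was collected at 76 h, after 12 h with the inhibitor, and each culture gave 1 Affymetrix array of MAS5 signals. The question is what the inhibitor does to transcript levels under mineralizing conditions; no group lacked beta-glycerol phosphate.

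NRF2, the product of Nfe2l2, is a transcription factor that KEAP1 holds at low levels by presenting it to a CUL3 ubiquitin ligase. Oxidants and electrophiles modify cysteines of KEAP1, after which NRF2 accumulates, pairs with a small MAF protein and binds antioxidant response elements in its target genes. The targets reduce quinones and carbonyls, make and use glutathione, import cystine and degrade haem, and many of them draw on NADPH. NRF2 is controlled largely at the level of its protein, which these arrays do not measure.

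Antioxidant response elements share the core TGACNNNGC, which was searched on both strands in RefSeq promoter windows of assembly GRCr8 that run from 250 bases before to 50 bases after a gene's start. Windows were found for 9 members, with 2 for Txnrd1, which has separate starts; Hmox1 was not matched. The core was present in 4 of these 10 windows and in 12.1% of all 33469 windows in the table. In Gsta1 and Nfe2l2 the match lay after the start, and in Gclm and in one Txnrd1 window it lay before it, 172 to 164 and 78 to 70 bases upstream. Those upstream stretches are shown because they allow the letters of both matches to be compared; capitals mark the core, which reads on the opposite strand in each, and the sequences run 5′ to 3′ along the gene's strand.
Gclm, chr2:213031943-213031991, plus strand: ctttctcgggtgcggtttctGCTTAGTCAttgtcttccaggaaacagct
Txnrd1, chr7:22755954-22756002, minus strand: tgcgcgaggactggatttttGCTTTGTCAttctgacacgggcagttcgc
None of the 10 windows held the AP-1 type motif TGANTCA, which occurred in 7.33% of all windows, so no match overlapped one. The windows of Nqo1, Cbr3, Gclc, Osgin1 and Slc7a11 held neither motif; sites farther from the start were not searched. A match describes letters in a window and is not evidence of binding.

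With AEBSF, 6 of the 10 genes rose, Slc7a11 fell, and Gclm, Hmox1 and Nfe2l2 did not pass the test (limma on log2 signals, Benjamini-Hochberg adjusted p under 0.05 over 18625 probe sets). A gene stands for itself by its brightest tested probe set, and on that basis 16.3% of 9864 tested genes passed, 7.11% higher and 9.24% lower. The rises differed in size, from 2.38-fold for Gsta1 through 1.58-fold for Nqo1 to between 1.2- and 1.36-fold for Osgin1, Gclc and Txnrd1. Cbr3 was 3.35-fold higher on signals near the bottom of the range, and its size is uncertain: with a constant of 64 added to every signal its log2 fold change was 0.91, below the 1.07 of Gsta1. The median log2 fold change of the 10 genes was 0.33, and that of all tested genes was 0.0025. The 10 genes were chosen with earlier results of these data known, so their excess over all tested genes is not independent support. In 8 of the 10 genes the signals of the AEBSF and mineralizing cultures did not overlap, with AEBSF higher in 7 and lower in 1. Among all tested genes the groups were apart in 36.1%, with AEBSF higher in 16.9% and lower in 19.1%. In bulk cultures a lower signal from fewer cells of a kind and one from less RNA per cell cannot be told apart.

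**Figure D1:**
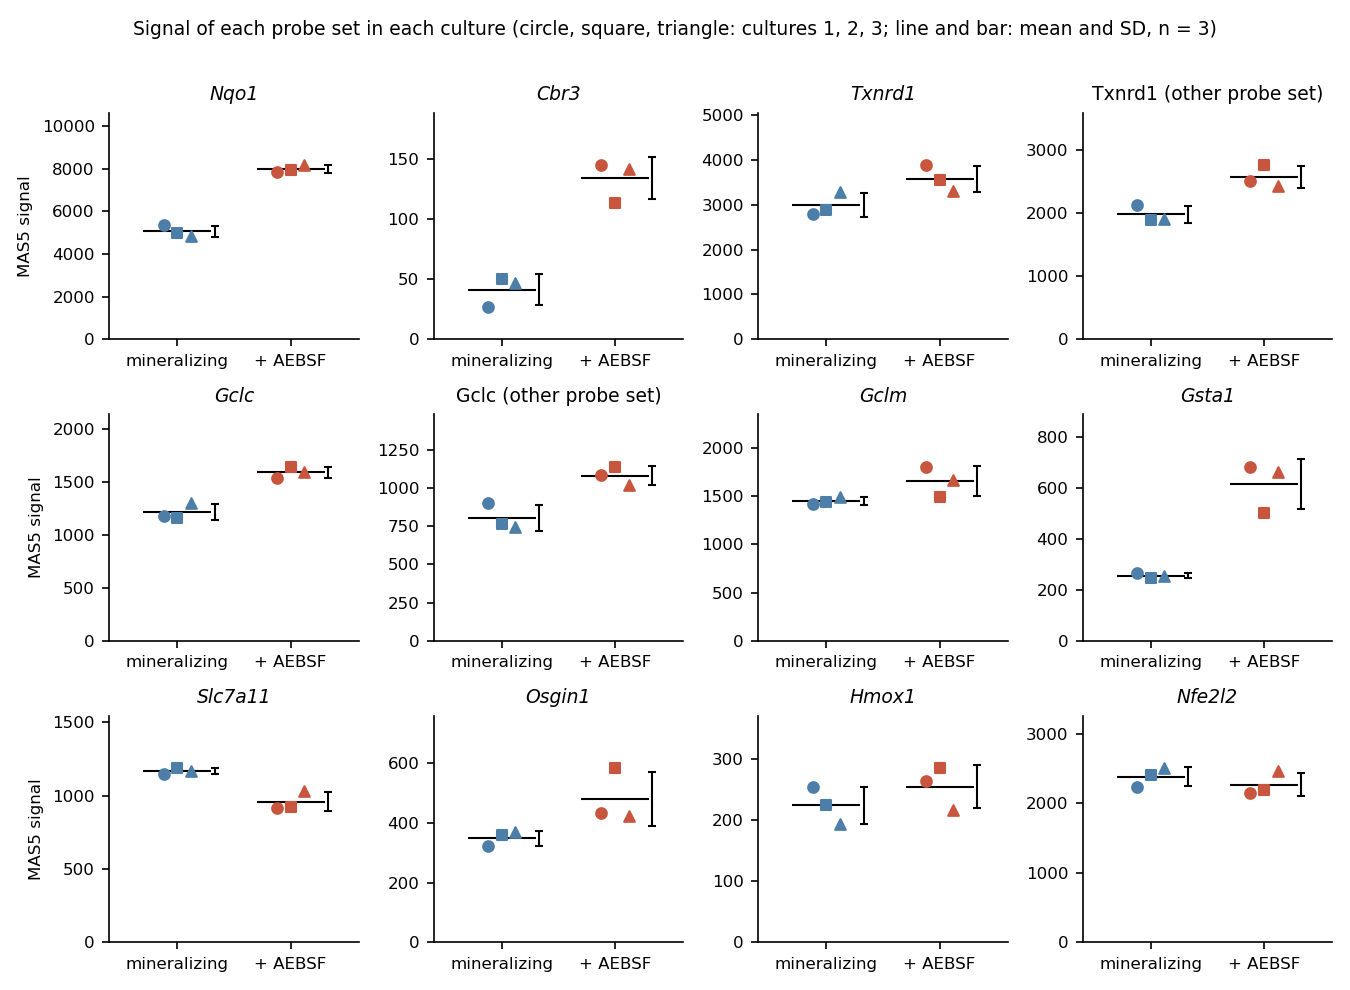
MAS5 signal of the 12 probe sets in each of the 6 cultures, on axes that start at 0 and differ between panels; circles, squares and triangles are cultures 1, 2 and 3, and lines and bars are mean and SD (n = 3). The groups are apart in every panel except Hmox1 and Nfe2l2, with AEBSF lower only for Slc7a11.

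Some calls were lost when 1 array was left out, and the scaling of the arrays bears on all of them. Without mineralizing culture 1, mineralizing culture 2 or AEBSF culture 1, 4 of the 10 genes passed, in each case Nqo1, Gclc, Gsta1 and Cbr3. Without mineralizing culture 3 or AEBSF culture 2, 5 passed. Calls over all 9864 tested genes fell as well, from 701 higher and 911 lower with 6 arrays to 294 and 499 without mineralizing culture 1. MAS5 sets the arrays to a common overall level, and the spiked hybridization controls were on average brighter on the AEBSF arrays. Setting the arrays by those 18 control probe sets instead, called control scaling from here on, took the median over all tested genes from a log2 fold change of 0.002 to -0.144, and the split of called probe sets from 1115 higher and 1380 lower to 119 and 2457. Nqo1, Gsta1 and Cbr3 still rose and Slc7a11 still fell, and the other 3 rises did not pass. The rises and falls given here are thus measured against the bulk of the array's genes.

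Nqo1 encodes NAD(P)H quinone dehydrogenase, which reduces quinones without forming semiquinone radicals. Its signal was 5354, 4969 and 4832 in the mineralizing cultures and 7830, 7912 and 8170 in the AEBSF cultures. The lowest AEBSF value lay far above the highest mineralizing value, and each group was tight, with a coefficient of variation of 5.36% and 2.22%. The means of 5052 ± 271 and 7971 ± 177 (SD, n = 3 each) gave a log2 fold change of 0.66 (SE 0.05, 95% confidence interval 0.54 to 0.78, limma adjusted p = 4.39e-05). Nqo1 ranked 37 among 9864 genes by log2 fold change. It passed in each of 16 alternative fits of its probe set, with adjusted p between 2.07e-05 and 0.0164, and its log2 fold change was 0.51 under control scaling.

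Cbr3 encodes a carbonyl reductase that also uses NADPH. It was dim: 26.4, 50.2 and 46.9 in the mineralizing cultures and 145, 113 and 142 with AEBSF. All 3 mineralizing values lay below the signal of 67.2 that the filter required of a probe set's mean, so Cbr3 was tested only because of its level in the AEBSF cultures. The groups were apart, and the mineralizing values varied most among the members, by 31.4% of their mean. The log2 fold change was 1.74 (SE 0.29, 95% confidence interval 1.12 to 2.37, limma adjusted p = 0.00283). With no signal filter, limma adjusted p was 0.0127. That fit removes the filter only, since Cbr3 was still a member chosen with earlier results of these data known. The constant of 64 gave limma adjusted p = 0.00152, and without mineralizing culture 1, the lowest, the log2 fold change was 1.45 (limma adjusted p = 0.00793).

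Txnrd1 encodes the cytosolic thioredoxin reductase, a selenoprotein that passes electrons from NADPH to thioredoxin. Its brightest probe set gave 2786, 2887 and 3294 without and 3887, 3544 and 3298 with AEBSF. The groups only just separated, since mineralizing culture 3 and AEBSF culture 3 were almost level. Its log2 fold change was 0.26 (SE 0.08, limma adjusted p = 0.0428). Leaving out mineralizing culture 1, mineralizing culture 2, AEBSF culture 1 or AEBSF culture 2 ended the call (limma adjusted p = 0.156, 0.136, 0.142 and 0.0775). So did the replicate number as a block and control scaling (limma adjusted p = 0.0807 and 0.5). Median centring, no signal filter and a constant variance prior ended it as well (limma adjusted p = 0.0715, 0.0866 and 0.165).

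The other Txnrd1 probe set separated the groups more widely, with signals of 2136, 1893 and 1914 against 2515, 2764 and 2438. Its log2 fold change was 0.38 (SE 0.07, limma adjusted p = 0.00479), and it passed without each array in turn. It did not pass under control scaling or with a constant variance prior (limma adjusted p = 0.144 and 0.0593). The gene's direction was thus the same in both probe sets, and the firmer call came from the dimmer one.

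Gclc and Gclm encode the catalytic and the modifier subunit of glutamate-cysteine ligase, which carries out the rate-limiting step of glutathione synthesis. The brighter Gclc probe set gave 1184, 1160 and 1299 in the mineralizing cultures and 1541, 1647 and 1594 with AEBSF. The dimmer one gave 902, 764 and 747 against 1086, 1139 and 1017. In both, every AEBSF culture lay above every mineralizing culture, and AEBSF culture 2 was the highest. The log2 fold changes were 0.39 (SE 0.07) and 0.43 (SE 0.09), with limma adjusted p = 0.00307 and 0.00761. Both calls held without any one array, and both were lost under control scaling (limma adjusted p = 0.109 and 0.118), where the log2 fold changes were 0.25 and 0.28.

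Gclm did not pass. Its signals were 1412, 1434 and 1489 without and 1804, 1493 and 1666 with AEBSF. The groups did not overlap, but AEBSF culture 2 stood only just above mineralizing culture 3. The log2 fold change was 0.19 (SE 0.07, 95% confidence interval 0.03 to 0.35, limma adjusted p = 0.106), and without AEBSF culture 2 it was 0.26 and passed (limma adjusted p = 0.0336). The confidence intervals of Gclm and of both Gclc probe sets overlap, so the subunits were not shown to differ in response; that difference was not tested.

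Gsta1 encodes an alpha-class glutathione transferase, which joins glutathione to electrophiles and reduces lipid peroxides. Its signal was 267, 248 and 255 in the mineralizing cultures and 683, 501 and 661 with AEBSF. The mineralizing values varied by 3.75% of their mean and the AEBSF values by 16.2%, with AEBSF culture 2 well below the other two. The means of 256 ± 9.61 and 615 ± 99.4 gave a log2 fold change of 1.25 (SE 0.12, 95% confidence interval 0.98 to 1.52), which ranked 3 among the tested genes. It passed in each of 16 alternative fits, with limma adjusted p between 4.59e-06 and 0.0151. Some alpha-class transferases are near-identical copies, and RefSeq lists Gsta3 and Gsta5 among the older names of this gene. Part of the signal may therefore come from a related transcript. Gsta2, Gsta5 and Gsta6 had no probe set of exactly 1 symbol, and those of Gsta3 and Gsta4 lay below the filter.

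Slc7a11, the transport subunit of the cystine-glutamate antiporter that brings in the cysteine needed for glutathione, went the other way. It read 1147, 1187 and 1170 in the mineralizing cultures and 919, 920 and 1032 with AEBSF. The mineralizing cultures were close together and all above the AEBSF cultures, of which culture 3 was the highest. The log2 fold change was -0.29 (SE 0.07, 95% confidence interval -0.44 to -0.14, limma adjusted p = 0.019). Leaving out any 1 of the 3 mineralizing cultures, AEBSF culture 1 or AEBSF culture 2 ended the call (limma adjusted p = 0.0594, 0.0748, 0.0591, 0.0577 and 0.0511). A constant variance prior ended the call too (limma adjusted p = 0.0777). Under control scaling the log2 fold change was -0.44 (limma adjusted p = 0.00442).

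Osgin1, an oxidative stress-induced growth inhibitor, gave 321, 358 and 369 without AEBSF and 434, 583 and 422 with it. AEBSF culture 2 stood above the rest, and the groups did not overlap. The log2 fold change was 0.44 (SE 0.13, limma adjusted p = 0.0418). Leaving out any 1 of the 3 mineralizing cultures, AEBSF culture 1 or AEBSF culture 2 ended the call (limma adjusted p = 0.141, 0.0893, 0.0689, 0.0534 and 0.12), and so did control scaling (0.19). Having no signal filter or a constant variance prior also ended the call (limma adjusted p = 0.0747 and 0.112). Without AEBSF culture 2 the log2 fold change of Osgin1 was 0.30.

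Hmox1, which encodes the inducible haem oxygenase, read 254, 225 and 194 in the mineralizing cultures and 264, 285 and 217 with AEBSF. The groups overlapped, since AEBSF culture 3 lay below mineralizing cultures 1 and 2. The log2 fold change of 0.19 (SE 0.15, limma adjusted p = 0.454) had a 95% confidence interval of -0.14 to 0.51, which spans folds of 0.906 to 1.43.

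Nfe2l2 itself showed 2234, 2408 and 2503 in the mineralizing cultures and 2152, 2195 and 2456 with AEBSF. The groups overlapped through AEBSF culture 3 alone, since AEBSF cultures 1 and 2 lay below every mineralizing culture. Its log2 fold change of -0.07 (SE 0.07, limma adjusted p = 0.528) had a 95% confidence interval of -0.22 to 0.08, which spans folds of 0.859 to 1.05. Neither Hmox1 nor Nfe2l2 passed in any alternative fit in which it was tested.

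**Figure D2:**
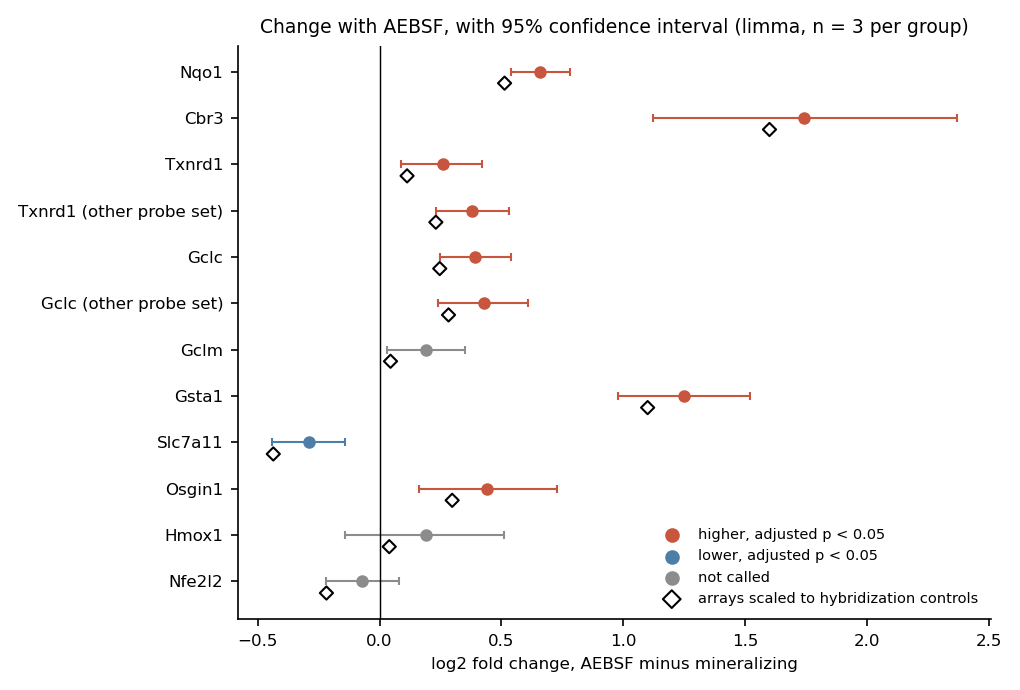
Log2 fold change of each probe set, AEBSF minus mineralizing, with its 95% confidence interval from limma (n = 3 per group), and as open diamonds the value under control scaling. Cbr3 (1.74) and Gsta1 (1.25) lie farthest to the right, Slc7a11 (-0.29) has its interval wholly below 0, and each diamond lies to the left of its point.

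The AEBSF cultures did not order in the same way across the members. AEBSF culture 2 had the lowest signal of its group for Gsta1, Cbr3 and Gclm and the highest for Osgin1, Hmox1, both Gclc probe sets and the dimmer Txnrd1 probe set. A culture that was high for one member was thus low for another, and no AEBSF culture was the highest in all of those that rose.

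**Figure D3:**
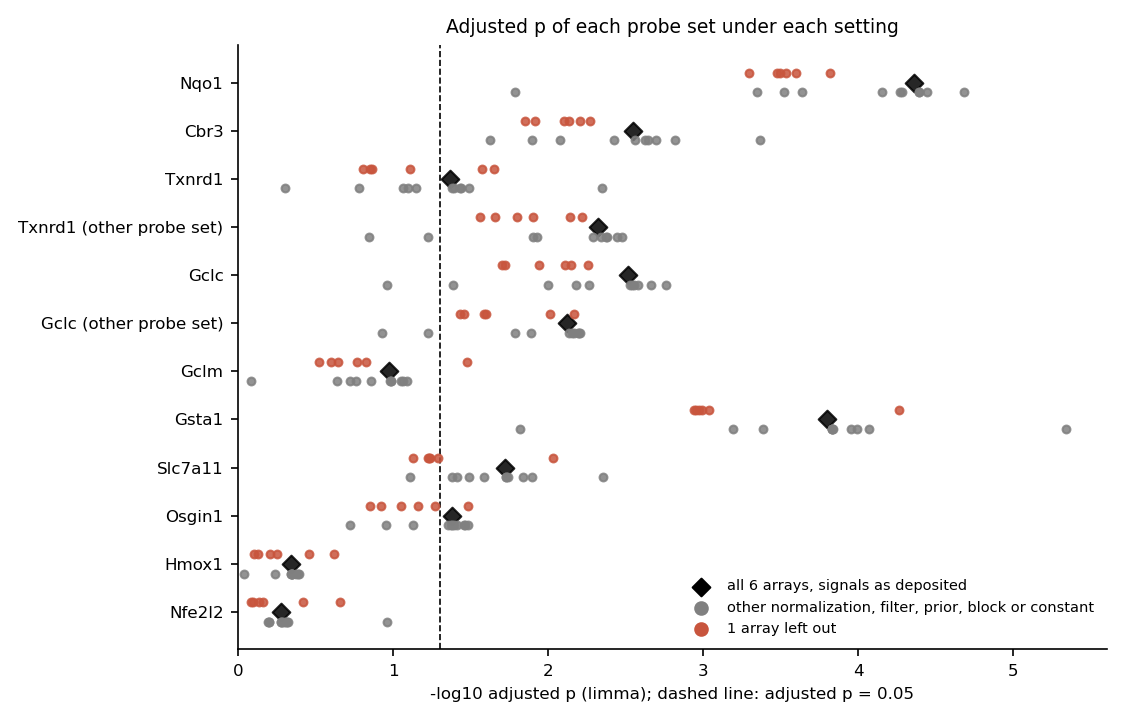
Adjusted p of each probe set on a -log10 scale under each setting: black diamonds for all 6 arrays as deposited, grey points for other normalizations, filters, priors, added constants and the block, red points with 1 array left out. Nqo1, Cbr3 and Gsta1 stay right of the dashed line (adjusted p = 0.05), Hmox1 and Nfe2l2 stay left of it, and Osgin1, Slc7a11 and the brighter Txnrd1 probe set lie on both sides.

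The rest of the pathway was read from 8 groups of genes that together hold 110 genes, the members included. Of these, 86 were tested, 17 lay below the filter, and 7 had no probe set of exactly 1 symbol, Prdx1, Fth1 and Ftl1 among them. In all 17 rose, 11 fell and 58 did not pass. Leaving out the members, 11 of 76 tested genes rose and 10 fell, 14.5% and 13.2%, against 7.11% and 9.24% of all tested genes, and their median log2 fold change was 0.00. These genes thus changed in both directions. The 8 groups, too, were chosen with earlier results of these data known. The count of called genes in the 8 groups was 14 without mineralizing culture 1 and 16 without mineralizing culture 2 or AEBSF culture 1. Under control scaling, 4 rose and 16 fell.

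Of 8 tested genes among NRF2 and its regulators, 1 rose and 0 fell, against 7.11% higher and 9.24% lower among all tested genes. The same shares apply to each group below, and counts of 0 or 1 in groups this small are near them. Sqstm1, the autophagy receptor p62 that binds KEAP1 and is itself an NRF2 target, rose from 4530 ± 77.8 to 5188 ± 129 (0.20 on the log2 scale, SE 0.05). Another of its probe sets rose as well (0.30, limma adjusted p = 0.0204). A much dimmer tested probe set, at 111 without and 116 with AEBSF, did not pass (0.07, limma adjusted p = 0.85). Leaving out mineralizing culture 1, mineralizing culture 2, AEBSF culture 1 or AEBSF culture 2 ended the Sqstm1 call (limma adjusted p = 0.0815, 0.0978, 0.0674 and 0.0629), as did the replicate block (0.0623) and control scaling (0.776). Median centring, a constant variance prior and averaging its probe sets ended it too (limma adjusted p = 0.0652, 0.117 and 0.126). Keap1, the repressor of NRF2, gave 683, 706 and 505 without and 775, 804 and 756 with AEBSF (log2 fold change 0.32, limma adjusted p = 0.0898). The groups were apart in this probe set, with mineralizing culture 3 well below the others. In a dimmer Keap1 probe set they overlapped (log2 fold change 0.33, limma adjusted p = 0.166). For Mafg, a small MAF partner, the log2 fold change was 0.22 (limma adjusted p = 0.183), and it passed without AEBSF culture 3 (0.34, limma adjusted p = 0.0236). Nfe2l1, a relative of Nfe2l2, stood at 533 ± 19.8 and 535 ± 30.4, and the ligase subunits Cul3 and Rbx1 had log2 fold changes of 0.09 and 0.10 (limma adjusted p = 0.984, 0.242 and 0.307), with Cul3, Rbx1 and Nfe2l1 below 0 under control scaling. Bach1, a repressor at the same elements, lay below the filter.

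Of 17 tested genes in the group of reductases, not all of which use NADPH, 4 rose, namely Cbr3, Nqo1, Akr7a2 and Txnrd1, and 1 fell. The fall was Cbr4, a mitochondrial carbonyl reductase, whose mean went from 1422 to 924 (SD 57.7 and 34.0), a log2 fold change of -0.62 (SE 0.07) with limma adjusted p = 0.000224. Carbonyl reductase genes thus moved in opposite directions, and the log2 fold change of Cbr1 was -0.09 (limma adjusted p = 0.412). Akr7a2, an aldehyde reductase, rose from 1318 ± 58.7 to 1590 ± 126. Leaving out mineralizing culture 1, mineralizing culture 3 or AEBSF culture 1 ended that call (limma adjusted p = 0.107, 0.0856 and 0.0925), as did the replicate block (0.0521) and control scaling (0.481). Gsr, glutathione reductase, stood at 358 ± 55.7 and 457 ± 40.8 (log2 fold change 0.36, limma adjusted p = 0.0779) and passed without mineralizing culture 2 (0.0493). Srxn1, sulfiredoxin, gave different answers by probe set: the brightest changed by 0.02 on the log2 scale (limma adjusted p = 0.877), and a dimmer one rose from 550 to 712 (0.37, limma adjusted p = 0.0367).

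Supply of NADPH was split, with 2 rises and 2 falls among 6 tested genes. Tkt (transketolase) and Taldo1 (transaldolase), of the non-oxidative pentose phosphate branch, rose by 0.31 and 0.26 on the log2 scale. Pgls, a lactonase of the oxidative branch, and Idh1, the cytosolic NADP isocitrate dehydrogenase, fell by 0.41 and 0.33. Tkt and Taldo1 did not pass under control scaling (limma adjusted p = 0.279 and 0.513). Taldo1 also missed the threshold with mineralizing culture 1, mineralizing culture 2 or AEBSF culture 2 left out (limma adjusted p = 0.0724, 0.0848 and 0.0512). Idh1 did so with mineralizing culture 2, mineralizing culture 3, AEBSF culture 1 or AEBSF culture 3 left out (limma adjusted p = 0.09, 0.0951, 0.0941 and 0.0681).

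Of 14 tested genes of glutathione synthesis and recycling, 4 rose and 1 fell. Beside Gclc, Ggt1, which cleaves glutathione outside the cell, rose from 846 ± 88.1 to 1097 ± 112 (log2 fold change 0.37, limma adjusted p = 0.0228). Ggct, which turns gamma-glutamyl amino acids into oxoproline, fell from 2426 ± 91.8 to 1715 ± 155 (-0.50, limma adjusted p = 0.00114). Gss, glutathione synthetase, which completes the synthesis that Gclc begins, gave 325 ± 29.2 and 410 ± 50.5 (0.33, limma adjusted p = 0.0893). Gpx4, which reduces lipid hydroperoxides, and the mitochondrial glutaredoxin Glrx2 rose by 0.23 and 0.21 on the log2 scale, but their other probe sets were lower with AEBSF (-0.72, limma adjusted p = 0.0973, and -0.52, limma adjusted p = 0.00404). Their direction is therefore uncertain. Leaving out mineralizing culture 1 or mineralizing culture 2 ended the calls of Ggt1 (limma adjusted p = 0.0844 and 0.0906), Gpx4 (0.0566 and 0.0657) and Glrx2 (0.115 and 0.102). Leaving out AEBSF culture 1 did so for Gpx4 and Glrx2 (limma adjusted p = 0.0531 and 0.0799), and AEBSF culture 2 for Ggt1 and Glrx2 (0.0695 and 0.0747). Glrx2 was also lost with the replicate block (limma adjusted p = 0.0662), and none of the 4 rises, Gclc included, passed under control scaling (0.208 for Ggt1).

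Among 18 tested genes of glutathione conjugation and conjugate export, 3 rose and 3 fell. With Gsta1, Gstp1, a pi-class transferase, rose from 6616 ± 155 to 8670 ± 190, by 0.39 on the log2 scale (SE 0.05, limma adjusted p = 0.000654), and it passed in each alternative. The microsomal transferase gene Mgst1 rose from 1483 ± 53.8 to 1906 ± 43.7 (0.36, limma adjusted p = 0.00245), but not under control scaling (0.131). The related Mgst3 fell from 1140 ± 69.3 to 850 ± 116 (-0.43, limma adjusted p = 0.0138; 0.0644 without mineralizing culture 1). Abcc5, an export pump, fell by 0.41 on the log2 scale. Its dimmer probe set did not pass (-0.11, limma adjusted p = 0.763), and averaging its probe sets ended the call (-0.26, limma adjusted p = 0.191). Leaving out any 1 of the 3 mineralizing cultures, AEBSF culture 1 or AEBSF culture 2 ended that call (limma adjusted p = 0.0591, 0.0606, 0.0978, 0.0582 and 0.0602). The remaining fall was the mu-class transferase Gstm5 (-0.30, limma adjusted p = 0.0145), named here after its value was seen.

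In cystine import and cysteine supply 2 of 6 tested genes fell and 0 rose, against 9.24% lower and 7.11% higher among all tested genes, so that a count of 0 rises in 6 genes is near the background. Besides Slc7a11 the fall was Cth, which makes cysteine from cystathionine, from 1423 ± 92.5 to 1017 ± 24.8. Its log2 fold change was -0.48 (SE 0.07, limma adjusted p = 0.00114), and it passed in each alternative. The median of the group was -0.25. Slc3a2, the partner chain that carries Slc7a11 to the membrane, gave 5411, 5668 and 5356 without and 5524, 5285 and 5509 with AEBSF (log2 fold change -0.01, 95% confidence interval -0.12 to 0.10, limma adjusted p = 0.923). Its value turned to 0.015 without mineralizing culture 2 and to 0.011 without AEBSF culture 2.

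Among 11 tested genes for thioredoxins, peroxiredoxins and other peroxide or superoxide removal, 2 rose and 1 fell. The mitochondrial superoxide dismutase Sod2 and the peroxiredoxin Prdx6 rose by 0.26 and 0.22 on the log2 scale, and Prdx4, the peroxiredoxin of the endoplasmic reticulum, fell by 0.24. Leaving out mineralizing culture 1, mineralizing culture 2 or AEBSF culture 1 ended the calls of Sod2 (limma adjusted p = 0.0819, 0.0704 and 0.0546), Prdx6 (0.0611, 0.0663 and 0.0694) and Prdx4 (0.0526, 0.0733 and 0.0672). The calls of Prdx6 and Prdx4 were also lost without mineralizing culture 3 (limma adjusted p = 0.0601 and 0.0583), and that of Prdx4 without AEBSF culture 2 (0.0534). Under control scaling the rises of Sod2 and Prdx6 did not pass (limma adjusted p = 0.504 and 0.645). Txn1, thioredoxin, the substrate of Txnrd1, stood at 18429 ± 1150 and 20904 ± 1240 (log2 fold change 0.18, limma adjusted p = 0.0786; 0.0385 without mineralizing culture 3). In the group of haem breakdown and iron, which also holds Osgin1, the iron exporter Slc40a1 fell from 426 ± 53.2 to 289 ± 30.1 (-0.55, limma adjusted p = 0.0152), and of its 6 tested genes 1 rose and 1 fell. Leaving out mineralizing culture 1 or mineralizing culture 3 ended the Slc40a1 call (limma adjusted p = 0.0704 and 0.0574).

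**Figure D4:**
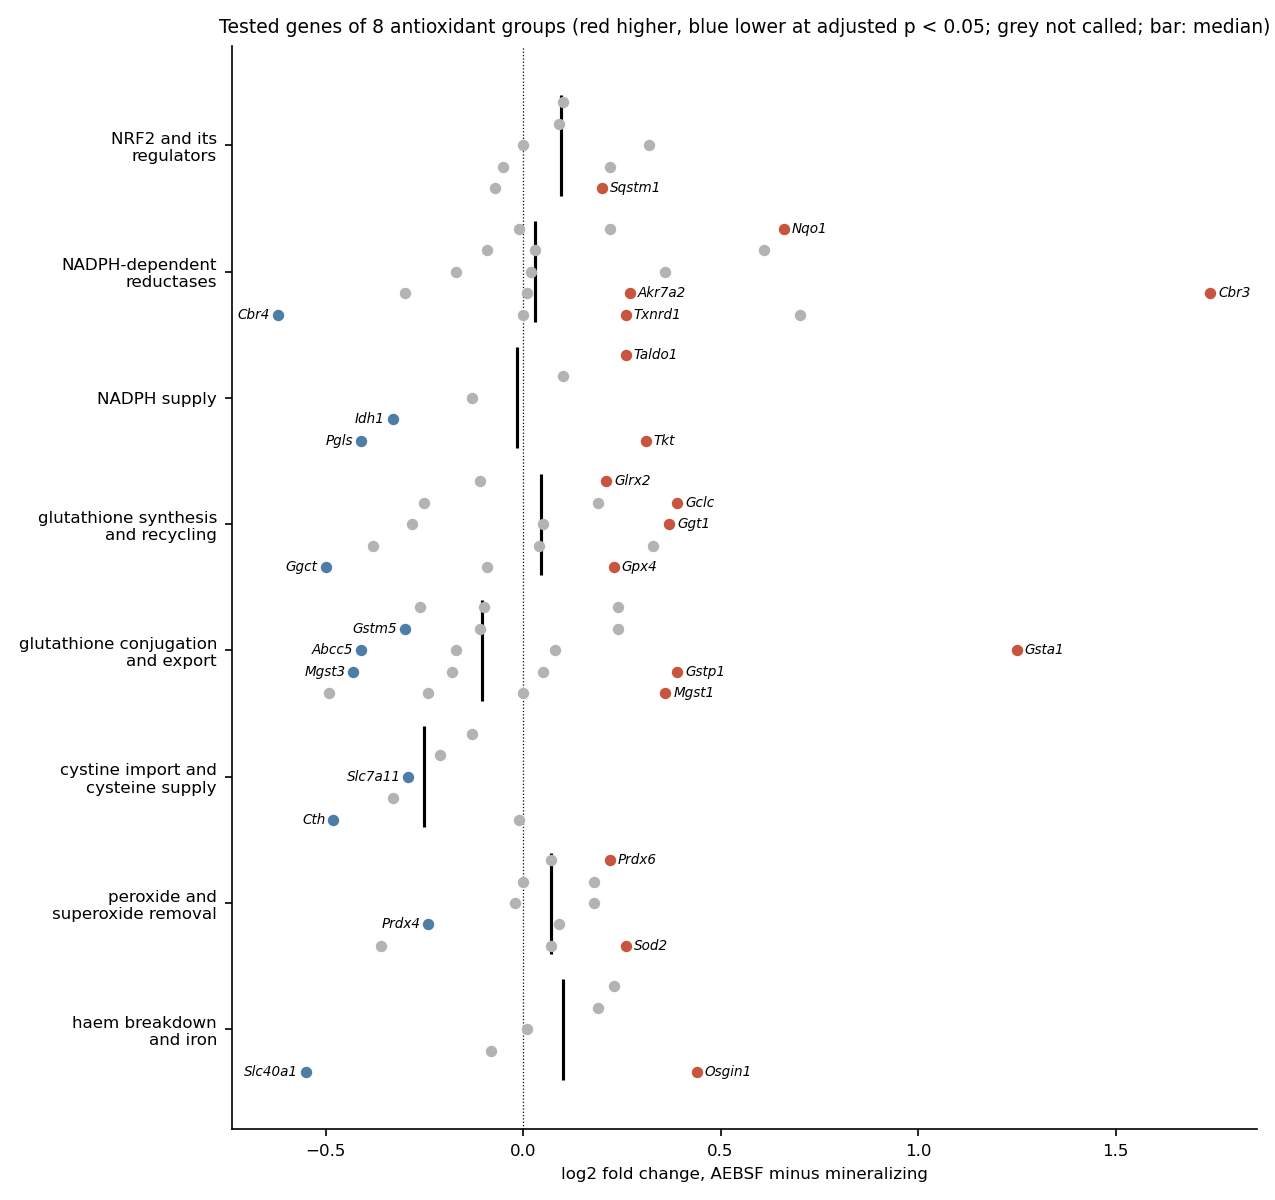
Log2 fold change, AEBSF minus mineralizing, of the 86 tested genes in 8 antioxidant groups; each point is a gene by its brightest tested probe set, red or blue where it passed an adjusted p of 0.05, with a bar at the group's median. Cbr3 and Gsta1 stand apart on the right, and the 2 called genes of cystine import and cysteine supply, Cth (-0.48) and Slc7a11 (-0.29), lie left of 0.

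Of 8 measured osteoblast markers 7 lay above the signal filter (not Bglap); Sp7 and Runx2 were not used here. The summed signal of the 8 was 26683 to 28144 in the mineralizing cultures and 24949 to 26152 with AEBSF, so the groups were apart. Of the 7 tested, both type I collagen chains fell, Col1a2 by 1.13 and Col1a1 by 0.67 on the log2 scale (limma adjusted p = 1.27e-05 and 0.00116), named here after their values were seen, and the others did not pass. The part of this shift in the members' values was not tested. None of 6 macrophage or osteoclast and none of 3 endothelial markers lay above the signal filter. Des was the 1 muscle marker of 4 above it, and Pparg the 1 adipocyte marker of 4. Neither Des nor Pparg passed the test (limma adjusted p = 0.925 and 0.68). The summed signal of the macrophage and osteoclast markers ranged from 202 to 240 in the mineralizing cultures and from 172 to 248 with AEBSF. The 3′ to 5′ signal ratio of beta-actin, a sign of RNA quality, was 1.52 to 1.54 without and 1.46 to 1.61 with AEBSF.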

How the data were processed

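RNA of 6 cultures was measured on 1 array each, 3 per group. The deposited values are intensities, 1 MAS5 signal per probe set and array, which the submitters' processing notes credit to GCOS. The sources used here give no software version, scaling target or detection calls. The values were not log transformed, and the mean after trimming 2% at each end was 500.15 or 500.16 on every array. No pair of the 6 arrays shared more than 2 of 31099 values. The number of arrays limits the precision; the labels call the cultures triplicates, so p-values measure the spread between these cultures.

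Probe sets were named from the platform annotation where it gave exactly 1 symbol. Log2 signals were fitted with limma 3.58.1 in R 4.3.3 (eBayes with a variance trend) for AEBSF minus mineralizing, over 18625 probe sets whose mean log2 signal lay above the 40th percentile (a signal of 67.2). Benjamini-Hochberg adjusted p-values used a threshold of 0.05. A gene stands by its tested probe set with the highest mean signal. With 3 against 3, an exact permutation test cannot go below 0.1, so none was used. The fit was tested on simulated data. Sizes of change were recovered and no unchanged probe set was called. Part of the true changes was missed at each size simulated, and most of them at the smaller size. A gene that did not pass may therefore still have changed. Far fewer probe sets changed in the simulation than passed here, so its lack of false calls does not measure false calls among these.

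Alternatives were quantile normalization, median centring, scaling to 18 hybridization control probe sets, added constants of 16 and 64, no filter or one at the 60th percentile, constant and robust priors, averaging a gene's probe sets, a replicate block, and leaving out each array. The text names the 10 members, up to 5 called genes of each of 8 pathway groups by size of change (where fewer than 2 were called, the 3 brightest) and 10 genes fixed by name; Cbr1 and Gstm5 are exceptions. Members and lists were chosen with earlier results of these data known. No genome was used, and coordinates are those of RefSeq's GRCr8 promoter windows.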

Additional observations from a re-analysis of the deposited data

How the results depend on the processing

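Under 17 alternatives the 10 members kept the direction of their log2 fold change, and the calls of Nqo1, Gsta1 and Cbr3 held wherever they were tested (Cbr3 and Hmox1 were not with the filter at the 60th percentile). Of 7 called members, 4 passed under control scaling and 4 with a constant variance prior, and 4 to 7 with 1 array left out. In the 8 pathway groups 28 genes passed, 14 with a constant prior and 14 to 29 with 1 array left out; under control scaling 4 rose and 16 fell, against 17 and 11. Over all probe sets 2495 passed, 885 (285 higher, 600 lower) with a constant prior, and 1203 to 2257 with 1 array left out; control scaling gave 119 higher and 2457 lower.

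The log2 fold change turned sign under control scaling for Cul3 (-0.053), Rbx1 (-0.042), Nfe2l1 (-0.14) and Srxn1 (-0.12), and on averaging probe sets for Gpx4 (-0.24), Glrx2 (-0.16) and Cul3 (-0.0030), where probe sets disagreed. With 1 array left out it also turned for Nfe2l1 (-0.021 to 0.052), Srxn1 (-0.0645 to 0.069) and Slc3a2 (-0.026 to 0.015), which were near 0. Of 27 named genes that passed, 8 passed in every alternative in which they were tested. The cause of the other losses was not tested. The text does not list every lost call.

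Replicate numbers did not pair the cultures: deviations from the group means correlated by 0.01, -0.12 and -0.04 for numbers 1, 2 and 3. With the replicate block 6 members passed (Txnrd1 was lost), 25 genes of the pathway groups and 1802 probe sets. Dim probe sets such as Cbr3 are the least certain in size.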
